A study of Homo sapiens with 12 samples.

Results

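GDF15, ADM2, ADM, VEGFA, STC1, STC2, ANGPTL4 and FGF21 encode secreted hormones and growth factors that cells are known to release under stress. These 8 genes, of 60675 in the deposited table, were grouped for that shared role and selected on their measured change against vehicle in these same libraries, so their changes against vehicle are given as descriptions and no p-value is printed for them. RNA was measured in bulk in SW1783, an established human astrocytoma line grown in L-15 medium, in 4 groups of 3 libraries. All cells were harvested after 24 h. Vehicle was PBS holding 2% DMSO, and dosed cells were given the water extract made from Aconitum carmichaeli Debeaux (ACD), a medicinal herb, at 20 µg/mL (low dose), 100 µg/mL (medium dose) or 500 µg/mL (high dose). By the study's methods the extract stock was dissolved in PBS with 2% DMSO as well, so 2% is the share in the solution added to the medium. The treatment protocol in the labels describes another herb, Poria cocos, whereas titles and treatment labels name ACD, and the groups follow the latter. All groups come from a single cell line, and nothing in the labels says that replicates were separate cultures, so p-values may measure technical spread alone.

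Stress pathways known to switch on these factors are given here for all but STC1. Transcription factors of the integrated stress response, ATF4 and CHOP (gene DDIT3), are known to act on GDF15, ADM2, VEGFA, STC2 and FGF21. The hypoxia-inducible factors are known to act on ADM, VEGFA, STC2 and ANGPTL4, the p53 protein on GDF15, and the PPAR nuclear receptors, which sense fatty acids, on ANGPTL4 and FGF21.

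Against vehicle, GDF15 and ADM2 were higher at every dose, ADM was higher at the high dose alone, and VEGFA and STC2 were higher by less. STC1 was lower at every dose, ANGPTL4 overlapped vehicle at the high dose, and FGF21 was almost undetected, so 5 of the 8 genes were higher with the extract at the high dose. The largest difference of the 8 was that of GDF15, 112-fold between the vehicle and high dose groups, followed by ADM2 at 18.5-fold and ADM at 2.54-fold. VEGFA stood 1.96-fold and STC2 1.69-fold above vehicle. In bulk RNA, a change in the number of cells that express a gene and a change in RNA per cell cannot be told apart.

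The DNA in front of 5 of these genes is shown, picked because their RNA differed in its change. GDF15 and ADM2 had the largest increase, and ADM was higher at the high dose alone. ANGPTL4 overlapped vehicle there, and FGF21 was barely detected. Promoter windows from RefSeq (GRCh38.p14), of 250 bases before and 50 bases after the start, were matched by symbol for 6 of the 8 genes. The 250 bases before the start are printed 5′ to 3′ on the gene's strand, with motif matches in capitals. The positions are chr19:18385908-18386157 for GDF15, chr22:50481293-50481542 for ADM2, chr11:10304823-10305072 for ADM, chr19:8363905-8364154 for ANGPTL4 and chr19:48755274-48755523 for FGF21, all on the plus strand. The GENCODE gene entries of GDF15 and ANGPTL4 begin further upstream than the RefSeq starts used here.
GDF15: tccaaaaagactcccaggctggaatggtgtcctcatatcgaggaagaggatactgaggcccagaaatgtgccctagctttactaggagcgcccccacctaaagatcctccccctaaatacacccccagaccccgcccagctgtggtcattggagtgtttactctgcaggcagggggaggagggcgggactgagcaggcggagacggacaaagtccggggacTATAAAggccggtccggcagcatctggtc
ADM2: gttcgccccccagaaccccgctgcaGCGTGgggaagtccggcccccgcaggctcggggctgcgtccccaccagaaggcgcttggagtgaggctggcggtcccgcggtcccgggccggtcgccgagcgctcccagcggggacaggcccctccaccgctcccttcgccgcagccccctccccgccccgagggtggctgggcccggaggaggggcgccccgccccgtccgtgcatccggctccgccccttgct
ADM: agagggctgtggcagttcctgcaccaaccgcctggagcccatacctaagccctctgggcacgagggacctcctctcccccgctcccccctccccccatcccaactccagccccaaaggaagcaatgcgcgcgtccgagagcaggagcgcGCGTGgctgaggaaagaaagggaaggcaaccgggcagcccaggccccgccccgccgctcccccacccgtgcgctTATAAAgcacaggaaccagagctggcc
ANGPTL4: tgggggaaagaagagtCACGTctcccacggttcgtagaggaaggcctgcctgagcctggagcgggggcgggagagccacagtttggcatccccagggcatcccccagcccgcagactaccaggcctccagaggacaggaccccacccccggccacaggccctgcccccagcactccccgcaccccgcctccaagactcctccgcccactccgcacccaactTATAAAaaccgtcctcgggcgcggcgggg
FGF21: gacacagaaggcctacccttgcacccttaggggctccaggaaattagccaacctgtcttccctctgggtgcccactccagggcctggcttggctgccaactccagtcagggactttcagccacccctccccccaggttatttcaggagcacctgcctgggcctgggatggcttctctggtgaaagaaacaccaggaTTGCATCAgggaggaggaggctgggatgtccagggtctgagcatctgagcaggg

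The capitals mark the letters searched. TATAAA, the TATA box, was looked for on the gene's strand, and the others on both strands: TGATGNAA (the C/EBP-ATF response element read by ATF4), TGACGTCA (the cyclic AMP response element), TGANTCA (the AP-1 site), and ACGTG and GCGTG (the core letters of the hypoxia response element). Positions count from the start, with -1 as the last base before it, and give the leftmost base of the match. GDF15, ADM and ANGPTL4 carried TATAAA at -29, -27 and -29, a motif found in 7.33% of 35116 windows. ADM2 held GCGTG at -225 and ADM held it at -101, as did 36.5% of all windows. ANGPTL4 held ACGTG on the opposite strand at -234, as did 21.4%. The STC2 window held GCGTG at 3 positions. FGF21 was the only one of the 6 windows with TGATGNAA, on the opposite strand at -54, against 3.62% of all windows, and TGACGTCA (1.85% of all windows) and TGANTCA (7.71%) were in none of the 6. No matches overlapped each other in the windows shown. The GC content ran from 59.3% for GDF15 to 76.7% for ADM2, against a median of 58.7%. A match describes letters and not a bound site, and a window without one holds no such letters over these 300 bases.

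Normalised counts below are expected read counts divided by the DESeq2 size factor of the library. Total counts lay between 18863863 and 24200576 per library. The share of counts from mitochondrially encoded genes was 5.03 to 5.29% in the vehicle libraries, 6.45 to 7.56% with the low dose, 10.6 to 10.8% with the medium dose and 8.99 to 9.29% with the high dose, and its part in the results was not tested. The astrocyte markers GFAP, S100B, AQP4 and ALDH1L1 reached at most 6 counts in a library, so these transcripts were close to absent. VIM (88412 normalised counts in vehicle), CD44 (56908) and SOX9 (1434), of the same list, were present. Of 10 astrocyte and glioma markers, 5 had a mean of at least 10, and among them SLC1A3 averaged 690 in vehicle and 126 at the high dose, and NES 214 and 64.7. Of the other cell types listed, summed leukocyte markers (2 of 3 above a mean of 10) ranged from 3079 to 3250 in vehicle and 3916 to 4201 at the high dose, with ITGAM at 3 counts or fewer. The members went apart, with CD68 averaging 2864 in vehicle and 3953 at the high dose and PTPRC 275 and 84.8. The summed epithelial markers (KRT18 alone of 3) ranged from 4473 to 4675 and from 1510 to 1649, the neuronal ones (3 of 4) from 1499 to 1545 and from 1309 to 1401, the oligodendrocyte ones (1 of 3) from 138 to 172 and from 260 to 263, and the endothelial ones (0 of 3) from 15.4 to 21 and from 7.21 to 18.5. Within the neuronal list SNAP25 averaged 704 and 167, MAP2 181 and 322, and SYT1 638 and 868. The part of these markers in the results was not tested.

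GDF15, a distant member of the transforming growth factor β family, signals loss of appetite to the hindbrain. It is encoded on chromosome 19 (ENSG00000130513, GRCh38 positions 18374731 to 18389176, plus strand). Its normalised counts were 63.5, 84.1 and 86.4 in the vehicle libraries, 144, 149 and 159 with the low dose, 983, 1025 and 1103 with the medium dose and 8517, 8922 and 8947 with the high dose. No library of any group overlapped the next, and the groups stood in the order of the dose. The means were 78 ± 12.6, 151 ± 7.56, 1037 ± 61.1 and 8795 ± 241 (SD, n = 3 each). On the log2 scale, GDF15 stood 0.94 (SE 0.122), 3.73 (SE 0.104) and 6.81 (SE 0.101) above vehicle at the low, medium and high dose. Each step of the dose moved it further, by 6.9-fold from the low to the medium dose and by 8.47-fold from the medium to the high dose. The medium dose held 54.8% of the log2 change of the high dose, but 11% of its gain in normalised counts. The lowest high dose library was 98.6 times the highest vehicle library.

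ADM2, also called intermedin, is a peptide of the calcitonin family that widens blood vessels. It lies on chromosome 22 (ENSG00000128165, 50481543 to 50486440, plus strand), and 3.05% of its exon bases overlap SBF1 on the opposite strand. Its normalised counts were 30.7, 42.9 and 45.8 in vehicle, 61.6, 84.7 and 79.5 with the low dose, 345, 389 and 404 with the medium dose and 736, 742 and 739 with the high dose. As with GDF15, no 2 groups overlapped. Their means were 39.8 ± 7.99, 75.2 ± 12.1, 379 ± 30.5 and 739 ± 3.05 (SD, n = 3 each), which put ADM2 0.91 (SE 0.184), 3.25 (SE 0.163) and 4.21 (SE 0.16) above vehicle on the log2 scale. The dose steps of ADM2 differed in size from those of GDF15. From the low to the medium dose ADM2 was 5.07-fold higher, and from the medium to the high dose only 1.94-fold higher. It had reached by the medium dose 77.2% of its log2 change and 48.6% of its gain in counts.

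**Figure D1:**
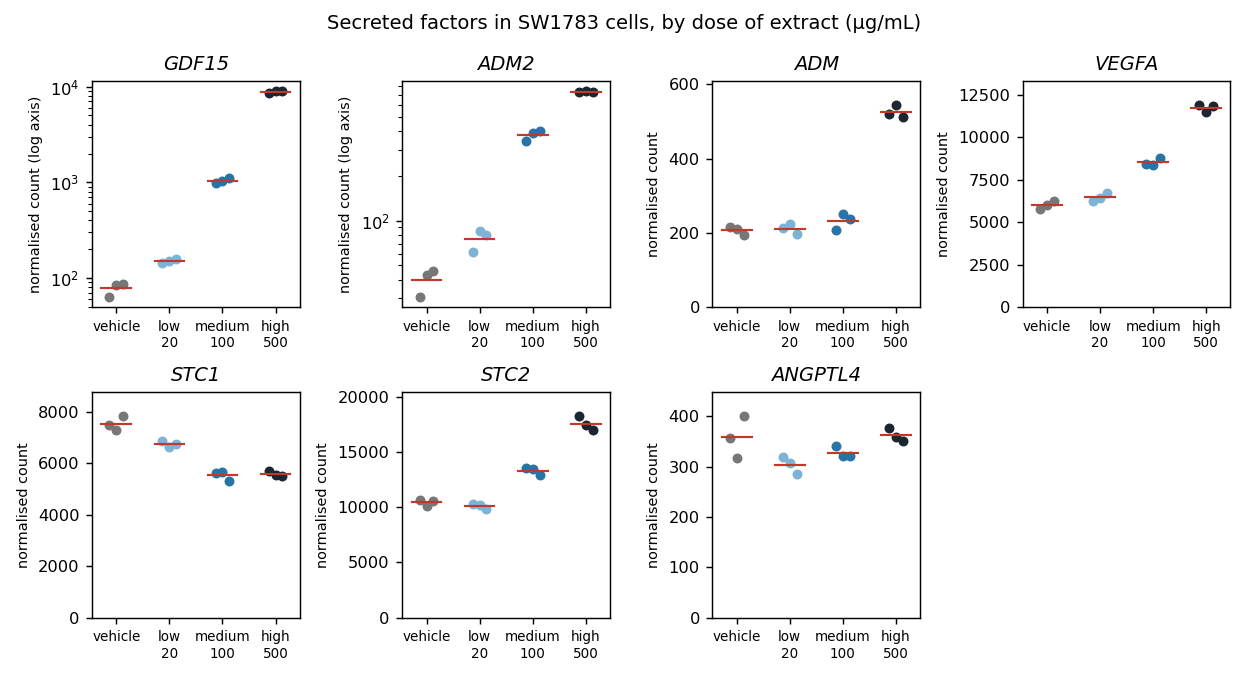
Normalised counts (y axis) of 7 genes (all but FGF21) by dose group (x axis, extract in µg/mL), 1 panel a gene, with a point for each of the 12 libraries and a red line at the mean of 3; the GDF15 and ADM2 panels have log axes and the others start at 0. GDF15 runs from 63.5 in the lowest vehicle library to 8947 in the highest high dose library, while ANGPTL4 stays between 285 and 401.

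ADM, adrenomedullin, is the other vasodilator peptide of this family and shares its receptors with ADM2. It lies on chromosome 11 (ENSG00000148926, 10305073 to 10307397, plus strand). Its normalised counts were 216, 210 and 194 in vehicle, 214, 224 and 197 with the low dose, 209, 252 and 237 with the medium dose and 521, 544 and 513 with the high dose. The vehicle, low and medium dose libraries overlapped, and the high dose libraries stood apart from all of them. The differences from vehicle were 0.03 (SE 0.116), 0.17 (SE 0.115) and 1.35 (SE 0.107) on the log2 scale, with means of 207 ± 11.7, 212 ± 13.9, 233 ± 21.9 and 526 ± 16.4 (SD, n = 3 each). The difference between the high and medium dose was 2.25-fold. ADM thus had 12.9% of its log2 change at the medium dose, where ADM2 had 77.2%. Per length of transcript, the ratio of ADM2 to ADM was 0.0504 to 0.0838 in the vehicle libraries, 0.102 to 0.143 with the low dose, 0.547 to 0.603 with the medium dose and 0.483 to 0.511 with the high dose, so ADM2 stayed below its relative in every library. Over the length of all annotated exons the ratio was 0.0771 to 0.128 in vehicle, 0.837 to 0.923 with the medium and 0.74 to 0.781 with the high dose, higher by over 1.5 times but still below 1.

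VEGFA, the main growth factor of blood vessels, lies on chromosome 6 (ENSG00000112715, 43770184 to 43786487, plus strand). Its normalised counts were 5749, 6016 and 6224 in vehicle, 6246, 6400 and 6731 with the low dose, 8406, 8376 and 8787 with the medium dose and 11885, 11466 and 11865 with the high dose. The groups did not overlap, although the lowest low dose library (6246) was barely above the highest vehicle library (6224). The means were 5996 ± 238, 6459 ± 248, 8523 ± 229 and 11738 ± 236 (SD, n = 3 each). On the log2 scale VEGFA stood 0.11 (SE 0.0348), 0.51 (SE 0.0344) and 0.97 (SE 0.0341) above vehicle. Unlike ADM, it changed in near even log2 steps, of 0.40 from the low to the medium dose and 0.46 from the medium to the high dose.

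STC1 and STC2, the stanniocalcins, are related hormones that inhibit the metalloproteases PAPPA and PAPPA2. STC2 lies on chromosome 5 (ENSG00000113739, 173314723 to 173328447, minus strand) and STC1 on chromosome 8 (ENSG00000159167, 23841929 to 23854806, minus strand). STC2 read 10628, 10100 and 10560 normalised counts in vehicle, 10331, 10247 and 9877 with the low dose, 13586, 13489 and 12887 with the medium dose and 18263, 17428 and 17032 with the high dose. The low dose overlapped vehicle, and the medium and high doses stood above it. STC1 went the other way, with 7489, 7295 and 7834 in vehicle, 6856, 6617 and 6731 with the low dose, 5600, 5669 and 5323 with the medium dose and 5696, 5545 and 5513 with the high dose. Their means were 10429 ± 288, 10152 ± 242, 13321 ± 379 and 17574 ± 628 for STC2 and 7539 ± 273, 6735 ± 120, 5531 ± 183 and 5585 ± 97.6 for STC1 (SD, n = 3 each). Every dosed library was below every vehicle library for STC1, and its medium and high dose libraries overlapped. STC2 stood -0.04 (SE 0.0317), 0.35 (SE 0.0314) and 0.75 (SE 0.0312) from vehicle on the log2 scale. STC1 stood -0.16 (SE 0.0327), -0.45 (SE 0.0331) and -0.43 (SE 0.033), and its high and medium doses were 0.01 apart (SE 0.0336). The ratio of STC2 to STC1 per length of transcript was 1.23 to 1.29 in the vehicle libraries, 1.33 to 1.41 with the low dose, 2.16 to 2.21 with the medium dose and 2.81 to 2.92 with the high dose.

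ANGPTL4, a secreted inhibitor of lipoprotein lipase, lies on chromosome 19 (ENSG00000167772, 8363289 to 8374370, plus strand). Its normalised counts were 358, 317 and 401 in vehicle, 320, 308 and 285 with the low dose, 341, 321 and 321 with the medium dose and 377, 360 and 352 with the high dose. All dosed groups overlapped vehicle, with differences of -0.23 (SE 0.105), -0.13 (SE 0.104) and 0.02 (SE 0.103) on the log2 scale, the last of which was -0.09 when libraries were scaled by their totals. FGF21, an endocrine fibroblast growth factor of the fasting response, lies on the same chromosome (ENSG00000105550, 48755524 to 48758333, plus strand). It had at most 2 expected counts in a library, and the libraries of a group summed to 1 in vehicle, 1 with the low dose, 1 with the medium dose and 3 with the high dose. A count of 0 allows up to 3, so all groups were at or under that floor and no fold is given.

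**Figure D2:**
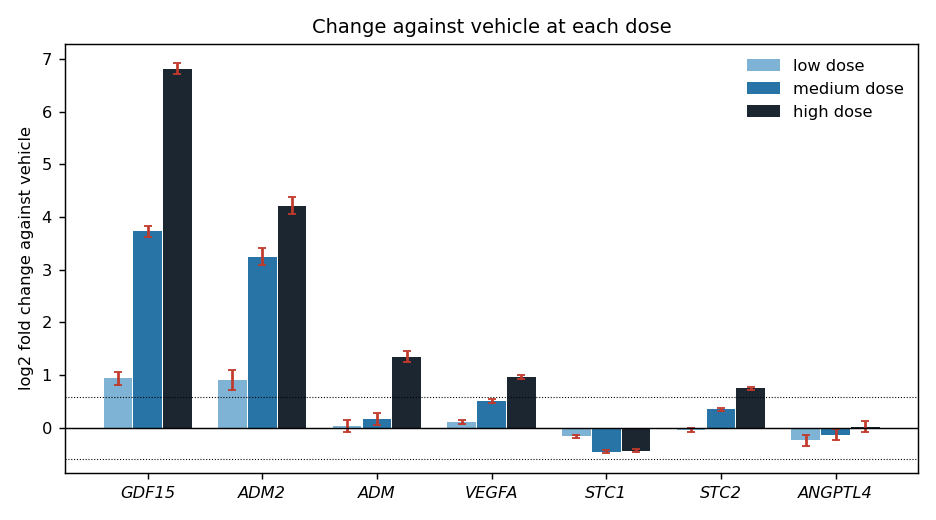
Log2 fold change against vehicle (y axis) of the 7 genes that had an adjusted p (x axis), with 1 bar for each dose, a red line for its standard error and dotted lines at a 1.5-fold difference. GDF15 reaches 6.81 and ADM2 4.21 at the high dose, while STC1 lies below 0 at each dose, at -0.43 for the high dose.

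A DEG was called where the DESeq2 adjusted p was under 0.05 and the fold change over 1.5. At the high dose GDF15, ADM2, ADM, VEGFA and STC2 met it as higher, in a comparison where 8.66% of 19453 genes did (and 9.57% were called lower). GDF15 and ADM2 met it at the medium dose, as did 2.34% of 14082 genes (1.48% lower), and the same pair met it at the low dose, as did 0.0967% of 9304 (0.0215% lower). These contrasts were in view when the genes were chosen, so for the 8 genes passing the threshold is a description of size and not a test of a new result. An adjusted p at the low dose required a mean of 263 over all 12 libraries. GDF15 (78 in vehicle and 151 at the low dose) and ADM2 (39.8 and 75.2) reached it only through their medium and high dose libraries. The libraries of 5 of the 8 genes lay wholly above vehicle at the high dose, where 30.6% of all genes did, and STC1 lay wholly below, where 29.9% did (60.4% in either direction). For the medium dose the numbers were 4 above (25% of all genes) and 1 below (25.4%, with 50.3% either way), and for the low dose 3 above (14.1%) and 1 below (11.6%, with 25.7% either way). STC2 at the high dose was just inside the fold threshold, and VEGFA at the medium dose, 1.42-fold higher, and STC1, 1.36-fold lower there, were just outside. The low dose call of ADM2 held in 10 of 20 alternative fits, with log2 differences of 0.76 to 1.04 in all 20. The other 10 gave it no adjusted p: library totals as the scale, vehicle and low dose alone, and the fits without vehicle replicate 3, any low dose replicate, medium dose replicate 2 or 3, or high dose replicate 2 or 3. The low dose call of GDF15 held in all but the fit of vehicle and low dose alone, which gave no adjusted p.

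To compare the genes with one another, counts were divided by the length of the canonical transcript and by the library's total in units of 1000000 counts. In vehicle the order was STC2 (121 ± 2.96 counts per kilobase on that scale, SD, n = 3), STC1 (96.2 ± 3.17), VEGFA (82 ± 3.2), ANGPTL4 (9.45 ± 1.07), ADM (6.84 ± 0.401), GDF15 (3.21 ± 0.519), ADM2 (0.467 ± 0.0937) and FGF21 (0.0107). Each gene's libraries were clear of the next gene's. At the low dose VEGFA (86.2) overlapped STC1 (83.8), and ADM (6.82) overlapped GDF15 (6.05). At the medium dose GDF15 (39.5) had passed ANGPTL4 (8) and ADM (7.13) but stayed below STC1 (65.4). At the high dose the order was GDF15 (335 ± 9.76), STC2 (189 ± 6.69), VEGFA (148 ± 2.39), STC1 (65.9 ± 1.11), ADM (16.1 ± 0.567), ANGPTL4 (8.86 ± 0.317) and ADM2 (8.01 ± 0.0636). GDF15 had thus moved from the 6th place of 8 to the first, whereas ADM2, with a larger fold change than ADM, stayed behind it. The place of VEGFA depended on its length: over all annotated exons (14431 bases, against 3609 in the canonical transcript), a choice made after the data were seen, its level was 20.5 in vehicle and 37.1 at the high dose, below STC1 in every group. On that length ADM2 (7.87) was above ANGPTL4 (6.7) at the high dose, and GDF15 was at 1.85 in vehicle and 192 at the high dose, still the highest of the 8 there.

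**Figure D3:**
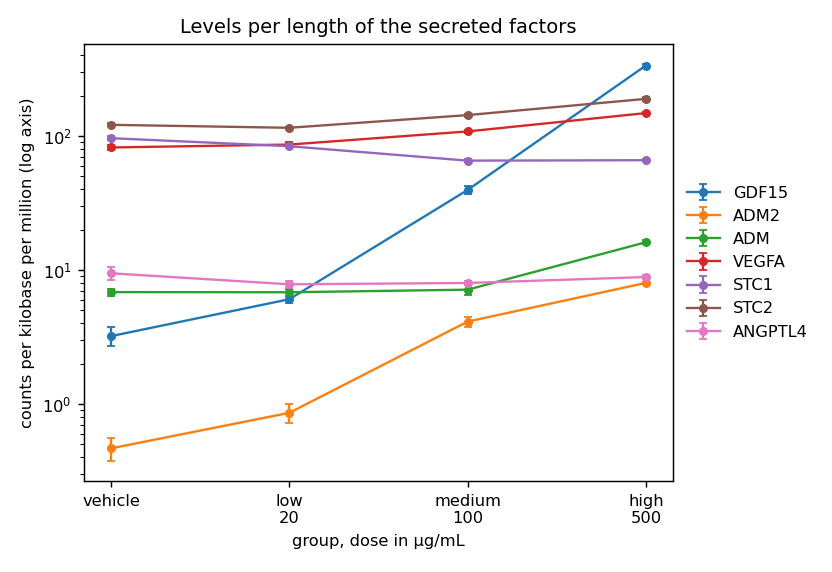
Counts per kilobase of canonical transcript per 1000000 counts (log y axis) of 7 genes (all but FGF21) by dose group (x axis, extract in µg/mL), with points at the mean of 3 libraries and bars for the SD. GDF15 goes from 3.21 in vehicle to 335 at the high dose, above STC2 at 189.

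The genes whose course over the 12 libraries was most like that of GDF15 and of ADM2 were found among 11264 genes with a mean of at least 100 normalised counts, by the root mean square difference in log2(normalised count + 1) after each gene's vehicle mean was taken away. By this measure, which depends on the size of a change as well as on its course, GDF15 had no close match. A gene with a similar course but a smaller change would also stand far from it. Its nearest genes were KCP (1.19), a secreted modulator of BMP signals that rose from 9.69 to 330, HKDC1 (1.24), a hexokinase family member that rose from 42.6 to 1142, and ADM2 itself (1.33). ADM2 was far closer to TRIB3 (0.351), a pseudokinase known as a target of ATF4 and CHOP, which read 393, 568, 2793 and 7743 in vehicle and at the low, medium and high dose. HKDC1 (0.535) and ATP2A3 (0.633), a calcium pump of the endoplasmic reticulum that read 32.9, 49.5, 168 and 358, came next. KCP and ATP2A3 reached the minimum mean only with their high dose libraries counted, so the nearness of these genes is a description. The exons of KCP overlap a gene on the opposite strand over 16.4% of their bases.

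Genes that work with these factors were grouped in 7 lists of 133 genes in all: partners (receptors, co-receptors and enzymes they act on), relatives in their families, regulators, and targets of the integrated stress response, of hypoxia, of p53 and of PPAR. At the high dose 48 of the 133 were DEGs (29 higher, 19 lower), of 110 with an adjusted p, and 18.2% of all genes tested were DEGs. Of 98 at the medium dose 21 were (19 higher, 2 lower), against 3.81% of all genes, and at the low dose 1 was of 78, against 0.118%. The one gene at the low dose was CHAC1, a glutathione-degrading enzyme, at 0.69 above vehicle on the log2 scale (SE 0.142, DESeq2 adjusted p = 0.000121), and its log2 difference lay between 0.62 and 0.81 in all the alternative fits. It was left without an adjusted p, and so without a call, when vehicle replicate 3 or any low dose replicate was left out, when libraries were scaled by their totals, or when only the vehicle and low dose groups entered the fit. CHAC1 averaged 84 in vehicle and 135 at the low dose. It reached the mean of 263 required for an adjusted p at that dose only through its medium and high dose libraries.

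The receptors of GDF15, of ADM and ADM2, and the co-receptor of FGF21 were at or near 0. GFRAL, which binds GDF15, and CALCR were at 0 counts in all libraries, RET, the co-receptor of GFRAL, reached 3 counts, CALCRL, the shared receptor of ADM and ADM2, reached 8, and KLB, the co-receptor of FGF21, reached 4. FLT1 reached 9 counts, whereas the VEGFA receptor KDR averaged 573 in vehicle and 638 at the high dose, a log2 difference of 0.15 (DESeq2 adjusted p = 0.11). NRP1, a co-receptor of VEGFA, averaged 14516 in vehicle and 10828 at the high dose, a log2 difference of -0.42 that did not pass the fold threshold. NRP2, also listed for VEGFA, went the other way, from 4576 to 5491 (0.26), and did not pass it either. Of 26 partners, 20 had an adjusted p at the high dose, and 1 rose and 3 fell. That was about the share over all genes, of which 18.2% were called (8.66% higher and 9.57% lower). The partners' median log2 fold change was -0.14, against 0.00 over all genes with a mean of at least 10. At the medium dose 1 of 14 was called, against 3.81% of all genes. PAPPA2, the protease inhibited by the stanniocalcins, rose from 11.5 ± 2.79 to 38.4 ± 9.68 (a log2 change of 1.75 with an SE of 0.408 and a DESeq2 adjusted p = 6.12e-05), while its homologue PAPPA averaged 1793 and 1986 and did not pass. PAPPA2 was also the 1 partner called at the medium dose (1.22, adjusted p = 0.0159), a call lost without vehicle replicate 2 (1.04), vehicle replicate 3 (1.21) or medium dose replicate 3 (1.19). With 11.5 in vehicle and 11.8 at the low dose, it reached the mean of 18.3 required there only through its medium and high dose libraries. The 3 that fell were ACKR3, a scavenger receptor of ADM (41.5 to 19.9, log2 fold change -1.07, adjusted p = 0.00418), RAMP1, an accessory protein of CALCRL (325 to 203, -0.68, adjusted p = 2.19e-08), and IGFBP5, a substrate of PAPPA2 (990 to 627, -0.66, adjusted p = 1.38e-18).

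Relatives went both ways. Of 34, 20 had an adjusted p at the high dose, where 8.66% of all genes were called higher and 9.57% lower. Among these relatives 3 rose and 7 fell, and the list's median log2 fold change was -0.33. Those that rose were INHBE, an activin subunit (12.7 to 59.3, 2.22, DESeq2 adjusted p = 3.81e-09), BMP6 (11.9 to 51.4, 2.10, adjusted p = 1.2e-07) and VEGFB (730 to 1165, 0.68, adjusted p = 1.92e-27), the last of which was at 0.56, under the fold threshold, when libraries were scaled by their totals. TGFB3 fell from 418 ± 28.1 to 53.8 ± 6.24 (-2.97, adjusted p = 7.63e-88), GDF5 from 29.5 to 5.38 (-2.49, adjusted p = 7.95e-07), BMP4 from 211 to 40.5 (-2.37, adjusted p = 5.85e-39) and PGF, the placental relative of VEGFA, from 115 to 44.3 (-1.38, adjusted p = 7.43e-11). GDF15, of the same wider family as TGFB3, GDF5 and BMP4, was 6.81 above vehicle on that scale. INHBE rose (1.39) and TGFB3 fell (-0.89) at the medium dose too. They were the 2 relatives called there, of 15 with an adjusted p, against 3.81% of all genes. INHBE (12.7 in vehicle and 12.2 at the low dose) reached the mean of 18.3 required there only through its medium and high dose libraries. Opposite-strand exons cover 35.4% of GDF5, 16.4% of INHBE and 16.3% of BMP4, and whether the counting used strand is not given in the sources used here.

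Regulators and targets of the integrated stress response were higher in the same libraries as GDF15 and ADM2. Of 18 regulators, 9 rose and none fell at the high dose (median log2 fold change 0.55), where 8.66% of all genes were called higher and 9.57% lower. At an unadjusted DESeq2 p under 0.05 there were 14 higher and 2 lower, with edgeR's calls at 9 higher. ATF3 averaged 38.3 in vehicle and 1014 at the high dose (4.73), DDIT3 515 and 7699 (3.91), ATF4 2059 and 8380 (2.03) and CEBPG, a partner of ATF4, 955 and 3301 (1.79). Of the 12 targets of the integrated stress response, 11 rose at both the high dose (median 1.95) and the medium dose (median 1.19). At those doses 8.66% and 2.34% of all genes were called higher. At the high dose TRIB3 changed by 4.31, PPP1R15A, which lets protein synthesis resume, by 2.94 (915 to 7005), CHAC1 by 2.94 (84 to 640) and ASNS, asparagine synthetase, by 2.87 (1021 to 7468). CHAC1 averaged 611 at the medium dose already, a log2 difference of 2.87 from vehicle, where GDF15 and ADM2 stood at 3.73 and 3.25. VLDLR was the target that did not pass, with 0.48 at the medium and 0.41 at the high dose. The DESeq2 adjusted p at the high dose was 8.32e-179 for ATF3 and 1.86e-117 for CHAC1, and too small for the software to represent for DDIT3, ATF4, CEBPG, TRIB3, PPP1R15A and ASNS, as it was for NDRG1, LDHA and PLIN2 below. An opposite-strand gene overlaps 31.6% of DDIT3, and a same-strand gene 49.3% of ASNS.

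Known hypoxia targets went in both directions. Of 18, 3 rose and 6 fell at the high dose, where 8.66% of all genes were called higher and 9.57% lower. Their median log2 fold change was -0.41, and at the medium dose 1 fell, where 1.48% of all genes did. The secreted factors named above as known targets of the hypoxia-inducible factors differed too. ADM, VEGFA and STC2 were higher at the high dose, and ANGPTL4 stood at 0.02. STC1, for which no pathway was given here, stood at -0.43. NDRG1, a stress protein, averaged 734 in vehicle and 3964 at the high dose (2.43), MXI1, a repressor of MYC targets, 206 and 453 (1.14, DESeq2 adjusted p = 1.37e-24), and INSIG2, a regulator of sterol synthesis, 266 and 402 (0.60, adjusted p = 4.25e-07). The INSIG2 call was lost without vehicle replicate 3 (0.49), without high dose replicate 2 (0.56) and under scaling by library totals (0.48). EGLN3, an oxygen-sensing prolyl hydroxylase, fell from 128 to 19.2 (-2.72, adjusted p = 1.42e-27) and was the gene called at the medium dose (-0.73, adjusted p = 0.000552). LDHA, lactate dehydrogenase, fell from 37963 to 19246 (-0.98), EGLN1, the homologue of EGLN3, from 1372 to 767 (-0.84, adjusted p = 1.42e-44) and PGK1, a glycolytic kinase, from 21135 to 13118 (-0.69, adjusted p = 4.05e-144). A same-strand gene overlaps 55.8% of EGLN1. HIF1A and EPAS1, which encode the hypoxia-inducible factors, changed by 0.33 and 0.45 and did not pass the fold threshold.

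Some p53 and PPAR targets were called at the high dose, where 18.2% of all genes were. Of 14 p53 targets with an adjusted p, 2 rose and 2 fell (median log2 fold change 0.10). BBC3, which drives cell death, rose from 6.9 to 79.9 (3.55, DESeq2 adjusted p = 1.48e-16) and CDKN1A, the cell-cycle brake, from 449 to 1216 (1.44, adjusted p = 1.6e-84). ZMAT3 changed by -0.71 (adjusted p = 3.84e-49) and TP53I3 by -0.62 (adjusted p = 5.46e-08), the latter lost without vehicle replicate 1 (-0.57). Of 12 PPAR targets, 9 of them with an adjusted p, PLIN2, the lipid droplet coat protein, rose from 1414 to 12394 (3.13) and SLC25A20, a carnitine carrier, fell (-0.69, adjusted p = 2.43e-10), with a median of 0.18. At the medium dose BBC3 (1.78) and PLIN2 (0.67) were called, PLIN2 at 0.56 and no longer so under scaling by library totals. BBC3 (6.9 in vehicle and 9.05 at the low dose) reached the mean of 18.3 required there only through its medium and high dose libraries. ANGPTL4, also a known PPAR target, stood at 0.02 at the high dose, where PLIN2 stood at 3.13.

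**Figure D4:**
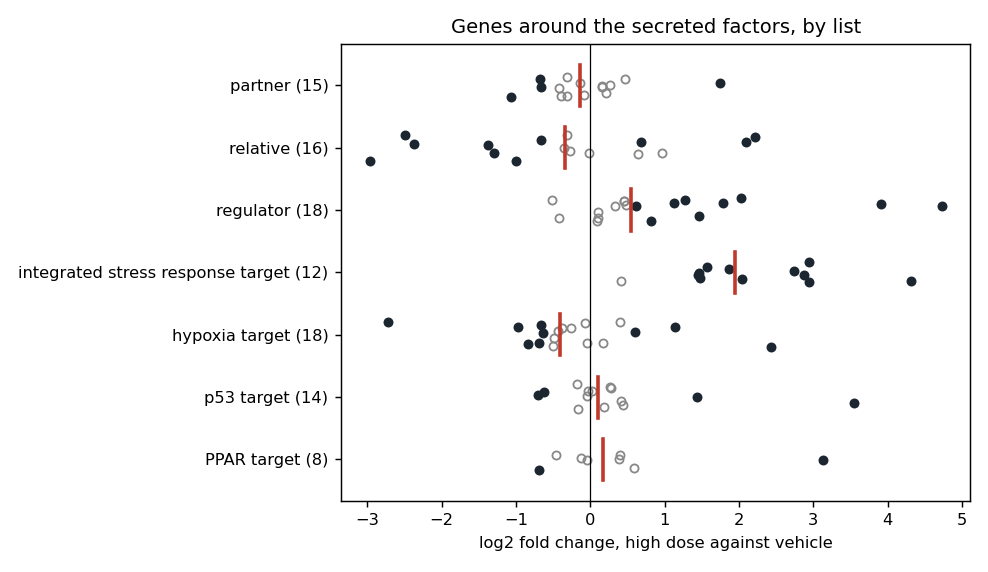
Log2 fold change at the high dose against vehicle (x axis) of list genes averaging at least 10 normalised counts in each of the 7 lists (rows), with 1 point a gene, filled for a DEG and open for the others, and a red bar at the list median; the number of genes is in brackets. The integrated stress response targets have a median of 1.95, and the hypoxia targets one of -0.41.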

How the data were processed

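Bulk RNA from 12 libraries of SW1783 cells was measured. The authors made strand-specific mRNA libraries, sequenced them as paired ends, checked and trimmed the reads, aligned them with STAR to GRCh38 and counted them per gene with RSEM 1.3.3 (version from the submitters' processing notes). The deposited table holds RSEM expected counts, which divide shared reads among genes, and 8.75% of the values were not whole. Poly(A) selection and the strand setting of the counting are not given in the sources used here. Each column was matched to its library by the label's code, and 0 columns were left over.

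The expected counts were rounded and fitted with DESeq2 1.42.0 (R 4.3.3) and tested by its Wald test, two-sided, with all 12 libraries together and group as the sole term. The study's methods name the Wald test of DESeq2 and not the terms of the fit. DEGs were genes past a 1.5-fold change in either direction whose p, adjusted after Benjamini-Hochberg, was under 0.05. Independent filtering left genes with means under 1.72 (high), 18.3 (medium) and 263 (low dose) out of the adjustment. Replicates differed by more than counting noise, with a chi-square of 1.99 to 3.55 per degree of freedom. Symbols and lengths came from GENCODE v44, which matched 93.2% of the gene IDs (99.9% of counts). Standard errors cover the spread between these libraries, and intervals or floors cover counting error only.

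The 8 genes, the lists, the markers and the tests were chosen with earlier results of these data known. All 8 genes are named, and of each list up to 4 DEGs of each direction at the high dose with the largest change and a mean of at least 10, any called at the medium or low dose alone, and the 3 genes nearest to GDF15 and to ADM2. Other list genes (the partners near 0, KDR, NRP1, NRP2, PAPPA, VLDLR, HIF1A and EPAS1), and the medium dose values of genes named, were chosen after their values were seen. The alternatives were edgeR 4.0.16, other size factors, filters and thresholds, fewer groups in the fit, a replicate block and leaving out each library.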

Additional observations from a re-analysis of the deposited data

Results flagged for a closer look

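CDKN1A, a target of p53 among the genes listed around GDF15, lay on opposite sides of vehicle at different doses. All high dose libraries were above all vehicle libraries, with a log2 fold change of 1.44, while all low dose libraries (-0.17) and all medium dose libraries (-0.18) were below vehicle. The high dose difference was a DEG (DESeq2 adjusted p = 1.6e-84), while the low dose (adjusted p = 0.319) and the medium dose (adjusted p = 0.0778) did not pass, and 11.6% and 25.4% of all genes lay wholly below vehicle at those doses. The difference between doses was not tested, and the dosed groups share their vehicle libraries. With 3 libraries a group, single libraries were not tested for standing apart.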

How the results depend on the processing

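Of 450 values of the 8 genes under the alternatives, 439 moved by less than the spread between replicates, 11 moved by more and 0 reversed, with GDF15 at 6.69 to 6.88 and ADM2 at 4.06 to 4.31 at the high dose. Scaling by library totals gave 10 of the 11, shifted the median log2 fold change of all genes to -0.11 (high and medium) and -0.03 (low), and moved STC1 to -0.55 at the high dose. The share of DEGs that were higher went from 47.5 to 34.1% at the high dose and from 61.3 to 35.4% at the medium dose. At the low dose it was 81.8%, and 60% with edgeR. Of 2005 values of the named list genes, 1976 kept direction and side of the threshold, 9 lost and 20 gained the call, and 0 reversed.

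The counts of DEGs were 3546, 537 and 11 over all genes and 48, 21 and 1 over the 133 list genes at the high, medium and low dose. Adjusted p alone gave 9040, 4157 and 306, and 79, 65 and 16. edgeR gave 809 genes at the medium and 30 at the low dose, no independent filtering 18 at the low dose, and the vehicle and low dose groups alone 6. Of the list genes at the low dose, library totals and the vehicle and low dose groups alone left 0 DEGs by DESeq2 (32 and 26 at an unadjusted p under 0.05), and edgeR called 1. Without 1 library, all genes gave 3188 to 3474, 452 to 515 and 6 to 13, and list genes 47 to 48, 18 to 21 and 0 to 2. At the low dose the 6 came without low dose replicate 1 or 2, 7 without vehicle replicate 3 and 13 without vehicle replicate 1, which also gave the 2 list genes, and the 0 came without vehicle replicate 3 or any low dose replicate. The cause was not tested. The labels name no shared batch for a replicate number. Of 18 same-number pairs, 5 had correlations of deviations over 0.1: the low and medium dose libraries at all 3 numbers (0.158, 0.124 and 0.193), and the high dose library 3 with the low (0.135) and medium dose library 3 (0.221). The 9 pairs with vehicle, which every test here uses, lay between -0.118 and -0.00687, so the libraries were treated as unpaired, although 6 of 12 were closest to their own number. The replicate block gave 3297, 488 and 11 genes and 48, 21 and 1 list genes. Genes under the filtering means, such as FGF21, are limited by depth.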
